A study of Mus musculus with 8 samples.

Results

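Integrins are the receptors that hold cells to the extracellular matrix, and each is a pair of one alpha and one beta chain that must assemble before it can reach the cell surface. The alpha chain largely sets the ligand (collagens, laminins, proteins with an RGD motif such as fibronectin and vitronectin, or ligands on other cells), and the short tail of the beta chain is where talin and kindlin bind to switch the receptor on. Behind them the ILK, PINCH and parvin complex, vinculin, paxillin, zyxin and focal adhesion kinase link the receptor to actin and to signalling. In lung epithelium laminin and collagen receptors face the basement membrane, and αvβ6 and αvβ8 are known for releasing active TGF-beta.

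The genes described here are 44 members of this system, of 43346 genes in the deposited count table, chosen by name: 22 integrin subunits (14 alpha and 8 beta), 4 other matrix receptors and 18 adaptors. Each name matched 1 row. They were compared between LLC1, a Lewis lung carcinoma line of C57BL origin, and MLE12, an epithelial line derived from a transgenic mouse lung tumour driven by SV40 large T behind the surfactant protein C promoter. Untreated cells of both lines were grown to near confluence, with 4 libraries each. No label states that libraries within a line were independent cultures, and the p-values therefore cover only the spread between these libraries, which may be technical. Each line is a single cell line, so a difference between them is one of these lines, not of carcinoma against epithelium in general.

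LLC1 libraries held 46.8 to 55.3 M counts, and MLE12 libraries 48.6 to 76.7 M. Lung epithelial markers were read in both lines. Nkx2-1, the lung epithelial transcription factor, had 0.663 ± 0.109 CPM (counts scaled to library size) in LLC1, against 147 ± 6.39 CPM in MLE12. Sftpc, which encodes surfactant protein C, had 0.154 ± 0.0549 CPM in LLC1, against 23.6 ± 1.59 CPM in MLE12. All 7 tested genes of a list of 10 alveolar and lung epithelial markers were higher in MLE12. Some, such as Epcam (5 counts in LLC1, 948 in MLE12), were tested through their MLE12 counts, which partly sets that result. Sftpd (0 counts in both lines), Sftpa1 (0 in LLC1, 7 in MLE12) and Cldn18 (36 in LLC1, 14 in MLE12) were not tested. The list summed to 55.0 to 60.8 CPM in LLC1, against 1011 to 1064 CPM in MLE12. Abca3, at 51.8 ± 2.91 CPM in LLC1 against 124 ± 8.13 CPM in MLE12, made most of the LLC1 sum. Krt19, at 3.80 ± 0.423 CPM in LLC1 against 554 ± 16.4 CPM in MLE12, was the largest part of the MLE12 sum. Levels of members are given as RPKM, that is CPM per kilobase of gene length, so that genes can be compared with each other, as mean ± SD over 4 libraries per line. Log2 fold changes are LLC1 over MLE12 with their SE, and each adjusted p comes from the quasi-likelihood test of edgeR, with Benjamini-Hochberg adjustment across the 18546 genes tested. As each library is a bulk extract, fewer cells with a transcript and less of it per cell cannot be told apart.

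Of the 44 members, 41 had enough counts to be tested. In LLC1 16 were higher and in MLE12 21, and 4 were not called. The background was high: 81.6% of all genes tested were called, 40.7% higher in LLC1 and 40.9% higher in MLE12, so the count of members called is read against that and not as a result in itself. Against a minimum difference of 2-fold, 12 members were higher in LLC1 and 13 in MLE12, where the background was 33.7% of all genes in either direction, 16.7% higher in LLC1 and 16.9% higher in MLE12. Libraries of the lines did not overlap for 16 tested members higher in LLC1 and 21 higher in MLE12, against 37.7% and 38.7% of all genes tested, 76.3% together. The median log2 fold change was -0.39 over the members tested and 0.02 over all genes tested, and the median size regardless of direction was 1.39 and 0.74.

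The members with the largest differences toward LLC1 at 1 RPKM or more in the higher line were Apbb1ip, Parvb and Itgb7, and the largest toward MLE12 by the same rule was Bcam. Their promoters, 250 bases before to 50 after the RefSeq start (GRCm38.p6, 5′ to 3′ on the gene's strand), are shown because these 4 genes, by a rule set after their values were seen, are the extremes in each direction. The windows are chr2:22774077-22774376 on the plus strand for Apbb1ip, chr15:84231793-84232092 on the plus strand for Parvb, chr15:102231886-102232185 on the minus strand for Itgb7 and chr7:19770483-19770782 on the minus strand for Bcam. Capitals mark GGGCGG, the SP1 box, on either strand.
Apbb1ip: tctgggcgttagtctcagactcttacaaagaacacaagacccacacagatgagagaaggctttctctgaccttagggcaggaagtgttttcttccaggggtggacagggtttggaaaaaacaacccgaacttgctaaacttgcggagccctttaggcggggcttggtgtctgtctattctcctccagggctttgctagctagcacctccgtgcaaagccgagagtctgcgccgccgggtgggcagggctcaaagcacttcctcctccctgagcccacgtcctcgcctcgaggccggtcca
Parvb: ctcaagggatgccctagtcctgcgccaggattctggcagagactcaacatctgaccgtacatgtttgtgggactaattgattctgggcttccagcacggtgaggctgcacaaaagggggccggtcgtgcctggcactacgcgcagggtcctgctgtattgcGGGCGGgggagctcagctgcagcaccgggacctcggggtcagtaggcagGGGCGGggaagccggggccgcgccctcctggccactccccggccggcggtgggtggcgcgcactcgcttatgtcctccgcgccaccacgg
Itgb7: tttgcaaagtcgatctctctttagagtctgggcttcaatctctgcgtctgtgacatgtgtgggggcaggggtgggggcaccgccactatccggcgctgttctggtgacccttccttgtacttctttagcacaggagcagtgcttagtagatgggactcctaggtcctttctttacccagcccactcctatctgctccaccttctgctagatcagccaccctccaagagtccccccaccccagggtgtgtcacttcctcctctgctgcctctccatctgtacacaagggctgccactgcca
Bcam: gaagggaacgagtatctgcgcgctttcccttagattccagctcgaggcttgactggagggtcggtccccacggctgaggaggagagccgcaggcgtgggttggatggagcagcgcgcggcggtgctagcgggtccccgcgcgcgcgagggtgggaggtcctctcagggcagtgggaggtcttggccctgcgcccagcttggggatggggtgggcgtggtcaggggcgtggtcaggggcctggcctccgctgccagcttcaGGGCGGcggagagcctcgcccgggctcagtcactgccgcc
The Parvb and Bcam windows held 24 and 27 CG dinucleotides, and the Apbb1ip and Itgb7 windows 13 and 5, where the median over 32851 promoters of the same length was 7. Parvb had 2 SP1 boxes and Bcam 1, a sequence present in 35.7% of all promoters. None of the 4 windows held TGANTCA (AP-1, in 7.81% of promoters), TGTGGT (RUNX, 16.8%), CATTCC (TEAD, 14.7%) or CCGGAA (ETS, 14.9%) on either strand, which says only that these letters are not in these windows. After Bcam, the next toward MLE12 were Itgb3, for which no promoter was held, and Dag1, whose windows are not shown. The Dag1 windows held 30 and 47 CG dinucleotides, with 3 and 4 SP1 boxes.

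The laminin-binding alpha subunits changed places between the lines. Itga6, the alpha chain of the laminin receptors α6β1 and α6β4 (ENSMUSG00000027111, mm10 chr2:71745616-71858416), had 72.9, 74.1, 73.8 and 77.4 RPKM in the LLC1 libraries, against 0.845, 0.909, 0.894 and 1.13 RPKM in the MLE12 libraries. All LLC1 libraries lay far above all MLE12 libraries, and the log2 fold change was 6.31 ± 0.07 (edgeR adjusted p = 7.4e-22). Itga7, the laminin receptor chain best known from muscle, had 6.14, 6.68, 7.05 and 6.30 RPKM in LLC1 and 0.0483, 0.0793, 0.104 and 0.105 RPKM in MLE12 (6.30 ± 0.13). Itga3, the chain of α3β1 that binds laminin-332 and laminin-511 in epithelia (ENSMUSG00000001507, mm10 chr11:95044474-95076801), went the other way, with 19.8, 20.8, 22.1 and 21.8 RPKM in LLC1 and 56.8, 58.1, 56.3 and 50.2 RPKM in MLE12 (-1.39 ± 0.05). In the summed RPKM of the 3 laminin-binding chains, Itga6 made 72.9 ± 0.888% in LLC1 and 1.69 ± 0.338% in MLE12, and Itga3 made 20.6 ± 0.583% in LLC1 and 98.2 ± 0.379% in MLE12. Transcripts of other loci match stretches of Itga6 at 95% identity or more over at least 200 bases, so part of its reads is of uncertain origin. Beside 133197 counts of Itga6 in LLC1 and 2354 in MLE12, a processed pseudogene (Gm29397) had 638 counts in LLC1 and 21 in MLE12, and Gm8113 had 2597 in LLC1 and 1494 in MLE12, so the uncertainty weighs most on the low MLE12 level.

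**Figure D1:**
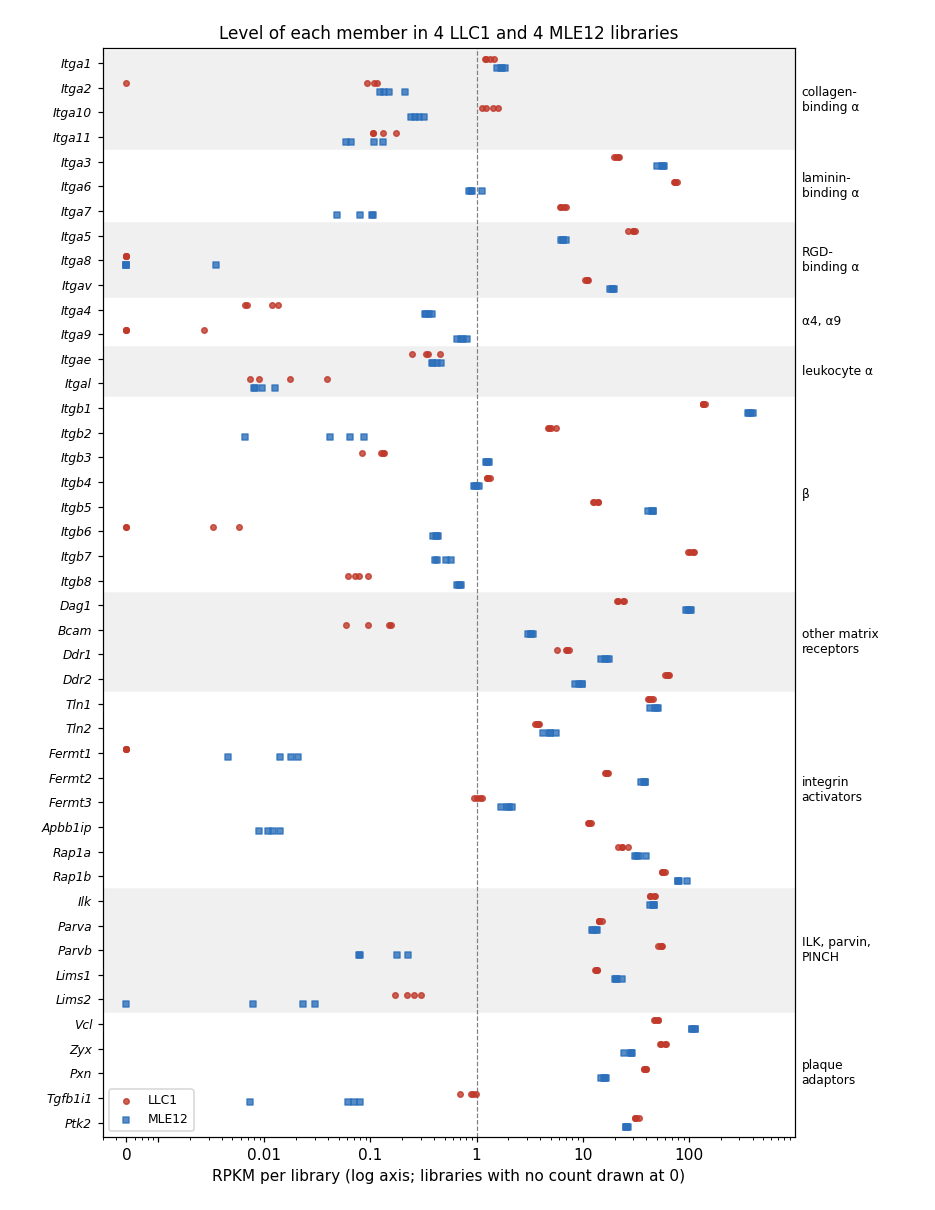
RPKM of each of the 44 members (log horizontal axis), with circles for the 4 LLC1 libraries above squares for the 4 MLE12 libraries, grouped by role. Itga6, Itgb7, Apbb1ip and Parvb lie far apart between the lines, while Ilk, Tln1 and Rap1a lie close together.

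Among the RGD-binding chains, Itga5, the alpha chain of the main fibronectin receptor, was higher in LLC1. It had 26.9, 30.0, 31.1 and 29.7 RPKM in LLC1 and 6.60, 7.04, 6.48 and 6.25 RPKM in MLE12, with no overlap (2.16 ± 0.05, edgeR adjusted p = 6.7e-18). Itgav, the shared chain of the vitronectin and TGF-beta-activating receptors, averaged 10.9 ± 0.283 RPKM in LLC1 and 19.2 ± 0.740 RPKM in MLE12 (-0.81 ± 0.04), which was called but did not pass the 2-fold test. Itga8, the nephronectin receptor chain, had 0 counts in LLC1 and 2 counts in MLE12 over 4 libraries each and was at the detection floor in both.

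Collagen-binding chains were low throughout. Itga1 stood at 1.31 ± 0.109 RPKM in LLC1 and 1.71 ± 0.112 RPKM in MLE12 (-0.39 ± 0.08), a called but small difference. Itga10, a collagen receptor chain known from cartilage, was higher in LLC1, with 1.44, 1.22, 1.12 and 1.60 RPKM there and 0.262, 0.322, 0.240 and 0.289 RPKM in MLE12 (2.28 ± 0.14). GENCODE M21 puts 33.5% of its exon length under a second gene on the same strand, which was not among the genes counted. Reads of that gene, if any, cannot be told apart from those of Itga10. Itga2 (0.0792 ± 0.0536 RPKM in LLC1, 0.155 ± 0.0388 RPKM in MLE12) and Itga11 (0.129 ± 0.0326 and 0.0911 ± 0.0350 RPKM) did not pass the test (edgeR adjusted p = 0.0841 for Itga2 and edgeR adjusted p = 0.159 for Itga11). Itga2 was at 0 counts in LLC1 replicate 3 and between 0.0932 and 0.115 RPKM in the other LLC1 libraries, and was called by edgeR with library totals alone (adjusted p = 0.0496) and by limma-voom (adjusted p = 0.0309).

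Itga4 and Itga9, related chains that bind fibronectin and VCAM1 or tenascin and osteopontin, were detected almost only in MLE12, and at low levels. Itga9 had 1 count over the 4 LLC1 libraries and 1588 over the 4 MLE12 libraries, where it stood at 0.730 ± 0.0632 RPKM. Its ratio of pooled CPM, MLE12 over LLC1, was 1115 with an exact 95% counting interval of 199.8 to 44063. That interval takes each count as independent and is too narrow if both reads of a pair were counted. Itga4 averaged 0.00965 ± 0.00346 RPKM in LLC1 and 0.350 ± 0.0226 RPKM in MLE12 (-5.15 ± 0.21, edgeR adjusted p = 1.7e-14). All LLC1 libraries were below all MLE12 libraries for both genes, as for 38.7% of all genes tested.

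**Figure D2:**
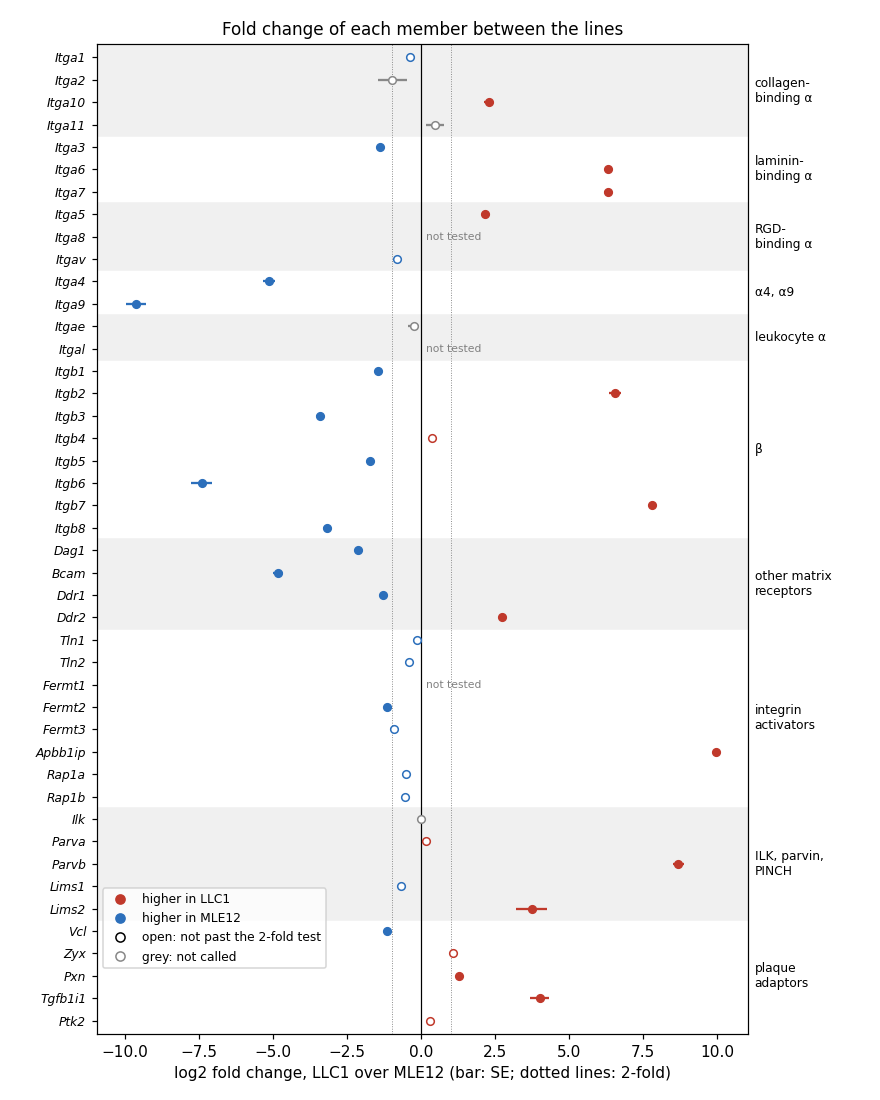
Log2 fold change (LLC1 over MLE12) with SE bars for the 41 tested members, red where higher in LLC1 and blue where higher in MLE12, with open points for changes that did not pass the 2-fold test. Large changes in both directions fell among integrin subunits, such as Itga4 at -5.15 and Itgb7 at 7.79. The values of Itga9 and Itgb6 rest on 1 and 3 counts in LLC1 and depend on the fit's prior count.

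The beta chains differed as sharply. Itgb1, the common partner of 12 of the alpha chains (ENSMUSG00000025809, mm10 chr8:128685654-128733200), had 142, 137, 136 and 138 RPKM in LLC1 and 362, 373, 384 and 402 RPKM in MLE12 (-1.46 ± 0.04, edgeR adjusted p = 1.7e-16). It was the most abundant integrin transcript of both lines. Itgb7, the leukocyte chain that pairs with α4 for gut homing and with αE for binding E-cadherin (ENSMUSG00000001281, mm10 chr15:102215995-102231935), had 99.3, 103, 112 and 110.1 RPKM in LLC1 and 0.570, 0.425, 0.407 and 0.517 RPKM in MLE12 (7.79 ± 0.08, edgeR adjusted p = 6.1e-23). Itgb7 made 40.1 ± 1.57% of the summed beta RPKM in LLC1 and 0.112 ± 0.0198% in MLE12, and Itgb1 made 52.3 ± 1.73% in LLC1 and 88.7 ± 0.894% in MLE12. Counts per gene do not show whether the Itgb7 reads come from full-length transcripts, so neither this level nor the pairs of β7 below can be read as transcript that encodes the whole chain.

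**Figure D3:**
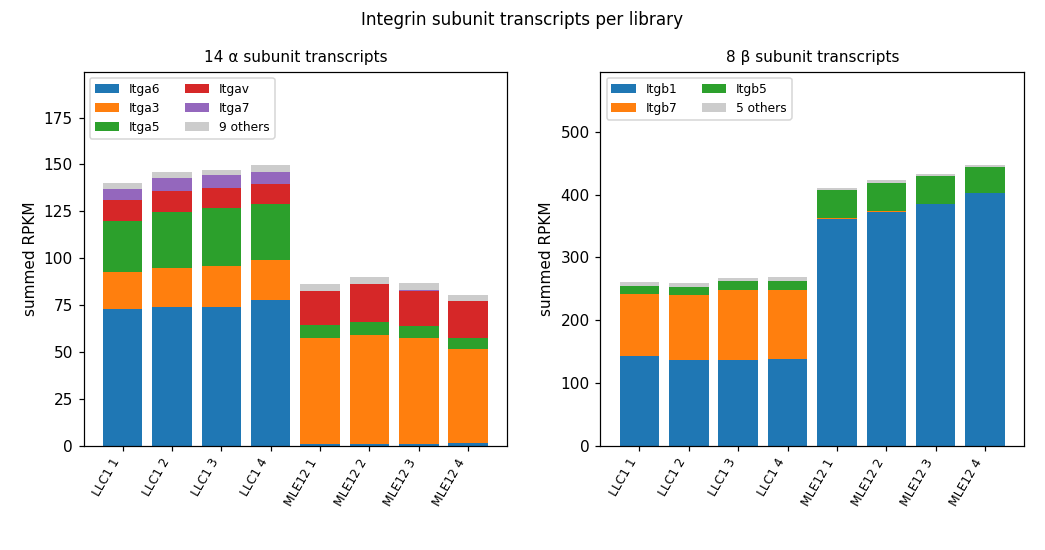
Summed RPKM of the 14 alpha (left) and 8 beta (right) subunit transcripts in each library, LLC1 libraries first, with the most abundant genes coloured. Itga6 and Itgb7 fill a large part of the LLC1 bars and almost none of the MLE12 bars, which are mostly Itga3 and Itgb1.

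Itgb2, the beta chain of the leukocyte integrins, was also higher in LLC1, with 4.75, 5.04, 4.81 and 5.58 RPKM, against 0.0636, 0.0868, 0.0416 and 0.00655 RPKM in MLE12 (6.55 ± 0.20). Itgb4, the hemidesmosome chain with a long cytoplasmic tail, stood at 1.28 ± 0.0449 RPKM in LLC1 and 0.994 ± 0.0484 RPKM in MLE12 (0.36 ± 0.08). This difference was called but small. The remaining beta chains, all partners of αv, were higher in MLE12. Itgb5, a vitronectin receptor chain, had 12.8, 12.6, 13.9 and 14.1 RPKM in LLC1 and 45.6, 45.9, 44.7 and 41.2 RPKM in MLE12 (-1.73 ± 0.05). Itgb3, the other vitronectin receptor chain, had 0.125, 0.133, 0.0840 and 0.132 RPKM in LLC1 and 1.26, 1.3, 1.3 and 1.22 RPKM in MLE12 (-3.41 ± 0.14). For Itgb8, a TGF-beta-activating chain, the means were 0.0764 ± 0.0138 RPKM in LLC1 and 0.687 ± 0.0293 RPKM in MLE12 (-3.18 ± 0.14). Itgb6, the epithelial TGF-beta-activating chain, had 3 counts over the LLC1 libraries and 828 over the MLE12 libraries, where it stood at 0.415 ± 0.0162 RPKM. Its pooled ratio, MLE12 over LLC1, was 194 with an exact 95% counting interval of 66.1 to 942, again taking each count as independent. Each of these 4 genes showed no overlap between the lines, as did 76.3% of all genes tested. But Itgb3, Itgb6 and Itgb8 stayed near or below 1 RPKM in MLE12 as well.

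An integrin needs both chains, so for each of 20 known pairs among the members the lower of the alpha and beta levels was taken in each library as the most that the transcripts of the pair could offer. Protein was not measured. With both chains at 1 RPKM or more in every library of a line, 9 pairs were present in LLC1 and 6 in MLE12, 5 of them in both: α1β1, α3β1, α5β1, αvβ1 and αvβ5. The 4 pairs past the level in every library of LLC1 but not of MLE12 were α6β1, α7β1, α10β1 and α6β4, and αvβ3 was the 1 pair past it in MLE12 but not in LLC1. This was a rule of level, with no test. In MLE12 a further 4 pairs lay between 0.5 and 1 RPKM in at least 1 library, so that at 0.5 RPKM the count there was 10. Itga1 has a longer exon model in GENCODE M21, and with that length α1β1 fell below the level in both lines (Itga1 at 0.420 ± 0.0352 RPKM in LLC1 and 0.551 ± 0.0361 RPKM in MLE12). The level of Itga7 with that annotation was 3.24 ± 0.202 RPKM in LLC1 and 0.0417 ± 0.0132 RPKM in MLE12.

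By this measure the laminin pair α6β1 reached 74.5 ± 1.97 RPKM in LLC1 and 0.944 ± 0.125 RPKM in MLE12. For α3β1 the values were 21.1 ± 1.02 RPKM in LLC1 and 55.3 ± 3.51 RPKM in MLE12. The pair α6β4, which anchors epithelial cells in hemidesmosomes, was held by its beta chain in LLC1, where Itga6 stood at 74.5 RPKM over 1.28 RPKM of Itgb4, while in MLE12 Itga6 stood at 0.944 RPKM and Itgb4 at 0.994 RPKM. For αvβ5 the lower chain was Itgav in both lines, at 10.9 ± 0.283 RPKM in LLC1 and 19.2 ± 0.740 RPKM in MLE12. The αv pairs with β3, β6 and β8 were held by the beta chain in both lines.

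**Figure D4:**
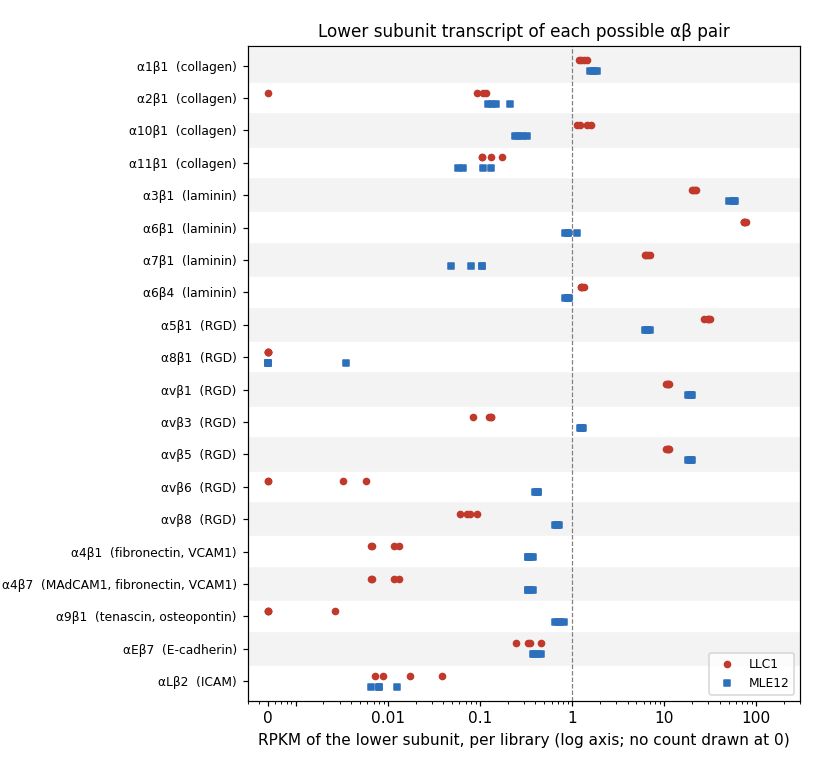
RPKM of the lower subunit of each of 20 possible αβ pairs (log horizontal axis), circles for LLC1 libraries above squares for MLE12 libraries, with the dashed line at 1 RPKM. The α6β1 and α7β1 pairs were past the line in every LLC1 library but not in every MLE12 library, and both pairs of β7 were below it in both lines.

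Itgb7, read abundantly in LLC1, had little alpha partner transcript beside it. Its partners are Itga4, at 0.00965 RPKM in LLC1, and Itgae, which had 0.247, 0.457, 0.347 and 0.336 RPKM in LLC1 and 0.466, 0.425, 0.377 and 0.388 RPKM in MLE12. Itgae did not differ beyond the test (-0.25 ± 0.18, edgeR adjusted p = 0.217), and its libraries overlapped. In LLC1 Itgae stood at 0.327% and Itga4 at 0.0091% of the Itgb7 level. The αE ligand E-cadherin, encoded by Cdh1, had 0.553 ± 0.0474 CPM in LLC1, against 154 ± 3.04 CPM in MLE12. Itgb2 likewise had little Itgal, the LFA-1 alpha chain, which had 23 counts over the LLC1 libraries and 17 over the MLE12 libraries and was not tested. Of the other partners of β2, which are not among the 44, Itgax had 7.34 ± 0.685 CPM in LLC1, against 0.0291 ± 0.0194 CPM in MLE12 (7.76 ± 0.25), while Itgam had 2 counts over the LLC1 libraries and 5 over the MLE12 libraries. Per length, Itgax averaged 1.81 RPKM in LLC1.

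Because Itgb7, Itgb2, Itgax and Apbb1ip are known from blood cells, leukocyte markers were read beside them. Of 20 leukocyte markers, 1 reached a mean of 1 CPM in LLC1 (Csf1r, 10.5 ± 0.788 CPM) and 2 in MLE12 (Csf1r, 12.8 ± 1.02 CPM, and Coro1a, 2.41 ± 0.271 CPM). Of the 4 that were tested, Csf1r and Coro1a were higher in MLE12, and Cd53, with 66 counts in LLC1 and 5 in MLE12 (4.06 ± 0.58), and Was, with 67 and 24 (1.95 ± 0.48), were higher in LLC1, both past the 2-fold test. The summed level of the list ran from 11.5 to 13.1 CPM in LLC1 and from 15.03 to 16.8 CPM in MLE12. Ptprc, which encodes the leukocyte common antigen, had 0 counts in LLC1 and 2 in MLE12, and Tyrobp and Vav1 had 0 in both. Of 8 megakaryocyte and platelet markers 3 reached a mean of 1 CPM in each line, and the list summed to 8.33 to 9.52 CPM in LLC1, against 10.5 to 12.1 CPM in MLE12. Itga2b, one of them, had 5.07 ± 0.424 CPM in LLC1 against 8.25 ± 0.537 CPM in MLE12. Itga2b is also an integrin alpha subunit gene not among the 44. Per length, it averaged 0.930 RPKM in LLC1 and 1.51 RPKM in MLE12, and no pair of it was among the 20 above. Ppbp was the 1 gene of that list past the 2-fold test and was higher in LLC1, with 182 counts there and 1 in MLE12. Of 8 endothelial markers 0 reached 1 CPM in LLC1 and 2 in MLE12. The part of other cells in the levels of these members was not tested.

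Summed over all chains, LLC1 had more alpha and less beta transcript than MLE12. The 14 alpha chains summed to 146 ± 4.08 RPKM in LLC1 and 85.9 ± 3.95 RPKM in MLE12, and the 8 beta chains to 264 ± 5.07 RPKM in LLC1 and 429 ± 15.3 RPKM in MLE12. The ratio of Itgb1 to the summed RPKM of its 12 alpha partners was 1.02, 0.940, 0.926 and 0.922 in the LLC1 libraries and 4.22, 4.16, 4.46 and 5.02 in the MLE12 libraries. The 2 sets of ratios did not overlap. These sums and ratios were described and not tested.

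Receptors outside the integrin family were mostly higher in MLE12, and the exception was the fibrillar collagen receptor Ddr2. Ddr2, a tyrosine kinase of mesenchymal cells, had 63.2, 65.1, 59.5 and 62.7 RPKM in LLC1 and 9.29, 9.97, 9.76 and 8.46 RPKM in MLE12 (2.74 ± 0.05, edgeR adjusted p = 1.7e-19). Of 10 fibroblast and mesenchymal markers 8 were tested, 4 higher in LLC1 and 4 in MLE12, and the list summed to 5276 to 5682 CPM in LLC1, against 1257 to 1336 CPM in MLE12 (its part in the Ddr2 level was not tested). That sum is carried by Vim, at 3958 ± 154 CPM in LLC1 against 943 ± 21.2 CPM in MLE12, and by Col3a1, at 1477 ± 59.1 CPM in LLC1 against 2.70 ± 0.968 CPM in MLE12. Others went the other way, such as Dcn, at 2.34 ± 0.117 CPM in LLC1 against 319 ± 15.8 CPM in MLE12, and Col1a1, at 0.313 ± 0.0164 CPM in LLC1 against 17.5 ± 0.625 CPM in MLE12. The epithelial relative Ddr1 had 5.68, 6.95, 7.42 and 7.18 RPKM in LLC1 and 17.1, 17.8, 16.1 and 14.8 RPKM in MLE12 (-1.27 ± 0.08). Ddr2 thus made 90.2 ± 1.20% of the summed discoidin receptor RPKM in LLC1 and 36.3 ± 1.09% in MLE12. Dag1, which encodes dystroglycan, a laminin and perlecan receptor, had 21.2, 21.6, 24.4 and 24.1 RPKM in LLC1 and 99.1, 105, 104 and 95.1 RPKM in MLE12. Bcam, a receptor for the laminin alpha5 chain (ENSMUSG00000002980, mm10 chr7:19756131-19771016), had 0.0939, 0.0585, 0.155 and 0.149 RPKM in LLC1 and 3.28, 3.39, 3.23 and 3.08 RPKM in MLE12. The libraries of the lines did not overlap for any of these 4 receptors, nor for 76.3% of all genes tested.

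Among the genes that switch integrins on, 1 stood apart. Apbb1ip (ENSMUSG00000026786, mm10 chr2:22774094-22875653) encodes RIAM, the adaptor through which RAP1 brings talin to integrins, best known from blood cells. It had 11.3, 11.4, 12.1 and 11.6 RPKM in LLC1 and 0.0140, 0.00894, 0.0120 and 0.0108 RPKM in MLE12. Its log2 fold change of 9.95 ± 0.09 was the largest among the members tested (edgeR adjusted p = 1.0e-23). The partners it works with changed little and in the other direction. Rap1b stood at 57.3 ± 1.95 RPKM in LLC1 and 84.2 ± 8.24 RPKM in MLE12 (-0.55 ± 0.06), and Rap1a at 23.9 ± 2.18 and 34.3 ± 3.71 RPKM (-0.52 ± 0.07). A processed pseudogene nearly identical to Rap1a had 272 counts in LLC1 and 456 in MLE12, beside 11320 and 22881 for Rap1a. Tln1, the main talin, stood at 43.5 ± 2.08 RPKM in LLC1 and 48.3 ± 3.75 RPKM in MLE12, with overlapping libraries (-0.15 ± 0.05, edgeR adjusted p = 0.0144). That edgeR call ended with upper-quartile scaling, with a minimum of 1 CPM in 4 libraries and without LLC1 replicate 1 (adjusted p = 0.110, adjusted p = 0.0900 and adjusted p = 0.101). Tln2 stood at 3.74 ± 0.167 RPKM in LLC1 and 4.93 ± 0.547 RPKM in MLE12 (-0.40 ± 0.07), or with M21 lengths at 2.48 ± 0.111 RPKM in LLC1 and 3.27 ± 0.363 RPKM in MLE12. With the deposited lengths it made 7.93 ± 0.323% of talin RPKM in LLC1 and 9.25 ± 0.508% in MLE12.

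Kindlins, which bind the beta tail together with talin, were mostly Fermt2 in both lines. Fermt2 had 16.1, 16.8, 17.3 and 17.1 RPKM in LLC1 and 35.6, 37.6, 38.8 and 39.0 RPKM in MLE12 (-1.17 ± 0.04). Fermt3, the kindlin of blood cells, was low, at 1.04 ± 0.0862 RPKM in LLC1 and 1.96 ± 0.204 RPKM in MLE12 (-0.92 ± 0.12), and with the longer M21 model at 0.465 ± 0.0385 RPKM in LLC1 and 0.876 ± 0.0912 RPKM in MLE12. Fermt1, the kindlin of epithelia, had 0 counts in LLC1 and 23 in MLE12 and was not tested. Against a floor of 3 counts over the 4 LLC1 libraries it was 5.38-fold lower in LLC1. That value takes the 23 counts in MLE12 as exact, so it is not a lower bound that includes counting error.

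The parvins, which bind ILK and actin, differed through Parvb. Parvb (ENSMUSG00000022438, mm10 chr15:84232043-84315688) had 51.8, 54.6, 56.1 and 55.1 RPKM in LLC1 and 0.0791, 0.177, 0.0775 and 0.226 RPKM in MLE12 (8.68 ± 0.19, edgeR adjusted p = 5.0e-11). Parva differed little, with 14.6 ± 0.518 RPKM in LLC1 and 12.9 ± 0.636 RPKM in MLE12 (0.17 ± 0.04, edgeR adjusted p = 0.0019), and that call ended with library totals alone (adjusted p = 0.195). Parvb made 78.9 ± 0.575% of the summed Parva and Parvb RPKM in LLC1 and 1.07 ± 0.546% in MLE12. That sum was 68.9 ± 2.16 RPKM in LLC1 and 13.1 ± 0.652 RPKM in MLE12. Parvg, another parvin gene, is not among the 44 and is not in the sum. It had 231 counts in LLC1, at 0.376 RPKM, and 2 counts in MLE12 (6.99 ± 0.52). Ilk, the pseudokinase at the centre of the complex, was at 45.5 ± 2.46 RPKM in LLC1 and 45.7 ± 1.97 RPKM in MLE12 and did not pass the test (-0.01 ± 0.05, edgeR adjusted p = 0.890). Of its exon length 76.7% lies under Taf10 on the opposite strand, and as the counting strand is not stated, reads of both genes cannot be told apart. Lims1, which encodes PINCH1, stood at 13.4 ± 0.177 RPKM in LLC1 and 21.4 ± 1.48 RPKM in MLE12 (-0.67 ± 0.05). Lims2, for PINCH2, was near the floor, with 80 counts in LLC1 and 8 in MLE12 (3.74 ± 0.52).

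**Figure D5:**
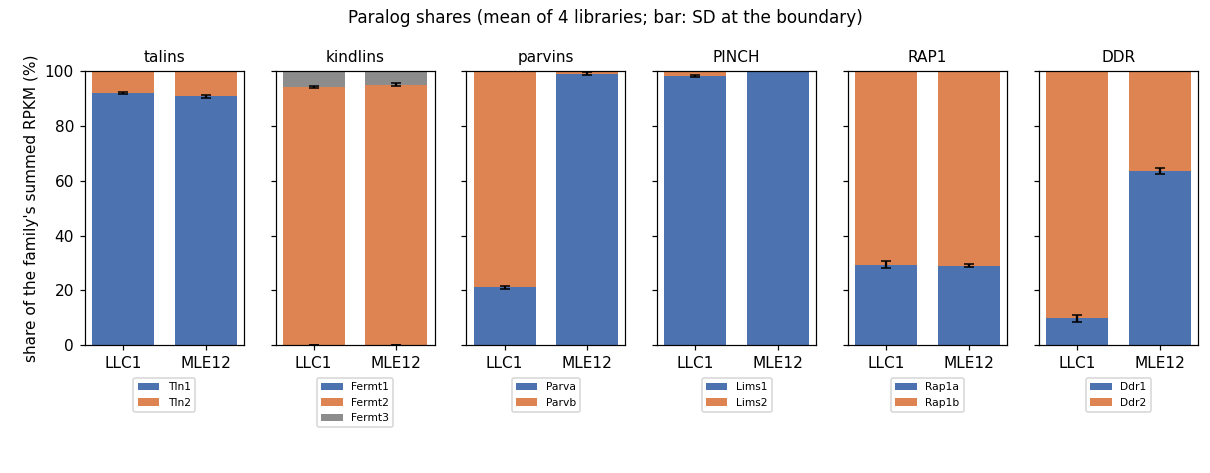
Share of each family's summed RPKM taken by its members, LLC1 left and MLE12 right in each panel, as the mean of 4 libraries with SD bars at the boundary. The parvin and discoidin receptor panels differ between the lines, with Parvb at 78.9% and 1.07% and Ddr2 at 90.2% and 36.3%, while Tln1, at 92.1% and 90.8%, and Rap1b, at 70.6% and 71.0%, are close.

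Proteins of the adhesion plaque divided. Vcl, vinculin, which reinforces the link from talin to actin, had 47.4, 47.9, 51.7 and 51.2 RPKM in LLC1 and 107, 115, 115 and 108 RPKM in MLE12 (-1.17 ± 0.05, edgeR adjusted p = 8.9e-15), with 25.5% of its exon length in GENCODE M21 under Ap3m1 on the opposite strand. With the longer M21 model it stood at 31.6 ± 1.40 RPKM in LLC1 and 71.0 ± 2.85 RPKM in MLE12, and the fold change, which uses no length, is unaffected. Pxn, the scaffold paxillin, had 37.9, 38.2, 39.7 and 39.5 RPKM in LLC1 and 16.2, 16.7, 15.8 and 15.02 RPKM in MLE12 (1.29 ± 0.04). Zyx, zyxin, a sensor of tension on actin fibres, averaged 57.5 ± 3.83 RPKM in LLC1 and 27.6 ± 2.12 RPKM in MLE12 (1.06 ± 0.06), called but not past the 2-fold test. Tgfb1i1, the paxillin relative HIC-5, was low, with 0.693, 0.889, 0.936 and 0.994 RPKM in LLC1 and 0.0791, 0.00737, 0.0705 and 0.0611 RPKM in MLE12 (4.0 ± 0.33). Ptk2, focal adhesion kinase, stood at 32.1 ± 1.09 RPKM in LLC1 and 26.0 ± 0.515 RPKM in MLE12 (0.30 ± 0.04). With M21 lengths Ptk2 stood at 13.6 ± 0.461 RPKM in LLC1 and 11.01 ± 0.218 RPKM in MLE12. Zyx then stood at 39.9 ± 2.66 RPKM in LLC1 and 19.1 ± 1.47 RPKM in MLE12. Tgfb1i1 stood at 0.566 ± 0.0839 RPKM in LLC1 and 0.0351 ± 0.0208 RPKM in MLE12 with these lengths. Libraries of the lines did not overlap for any of these 5 genes, nor for 76.3% of all genes tested.

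Other genes of the pathway were read from wider lists. Of 47 adhesion signalling and actin link genes, 46 were tested: LLC1 was higher for 21 and MLE12 for 23, and 2 were not called, with a median log2 fold change of -0.08. The largest toward LLC1 were Rap1gap, which turns RAP1 off (51.6 ± 2.33 CPM in LLC1, against 0.417 ± 0.231 CPM in MLE12, 7.06 ± 0.15), the kinase Pak1 (2.85 ± 0.08) and the actin elongation factor Evl (2.77 ± 0.07). Toward MLE12 they were Tns1, which encodes the adhesion adaptor tensin 1 (1.19 ± 0.327 CPM in LLC1, against 110.2 ± 7.61 CPM in MLE12, -6.53 ± 0.11), Elmo1 (-5.28 ± 0.11) and Kank1, a talin-binding protein at the rim of adhesions (-4.83 ± 0.10). Of 29 ligand genes, 23 were tested, 11 higher in LLC1 and 12 higher in MLE12, with a median of -0.27. Nid1, the basement membrane linker nidogen (8.53 ± 0.07), Spp1, which encodes osteopontin (6.02 ± 0.07), and Ltbp1, which holds latent TGF-beta in the matrix (5.12 ± 0.06), were higher in LLC1, and Icam1 (-8.37 ± 0.16), Cdh1 (-8.11 ± 0.07) and Ctgf (-7.36 ± 0.08) higher in MLE12. Of 18 tetraspanins and lateral partners, all 18 tested, LLC1 was higher for 9 and MLE12 for 7, and 2 were not called, with a median of 0.15. Among them Plaur, the urokinase receptor (1.46 ± 0.06), was higher in LLC1, and the tetraspanin Cd82 (-2.99 ± 0.08) and the syndecan Sdc1 (-1.81 ± 0.04) higher in MLE12. The background for these counts is again 40.7% and 40.9% of all genes tested.

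Members far higher in one line were still counted in the other. As a share of the higher line's mean CPM, the residue in MLE12 was 0.0983% for Apbb1ip, 0.257% for Parvb, 0.452% for Itgb7 and 1.27% for Itga6, and the residue in LLC1 was 0.0919% for Itga9 and 3.51% for Bcam. Whether this residue was transcribed in that line was not tested, and the fold changes of these genes depend on them.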

How the data were processed

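RNA of 4 LLC1 and 4 MLE12 libraries was measured. Fragmented poly-A RNA was sequenced as paired ends after random priming, per the labels' protocols. The deposited values are raw counts per gene, made with CASAVA, TopHat2, featureCounts and edgeR on mm10 per the submitters' processing notes; versions, strand setting, handling of reads with several alignments and annotation release are not given in the sources used here. More genes had a count of 2 than of 1 in 8 libraries, the pattern seen when both mates are counted. The deposited length per gene equals the exon union of GENCODE M21 for 74.7% of 42462 shared gene IDs, and for 27 of the 44 members; it was used for RPKM. Of the 44 members 29 had the same start and end in M21.

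Counts were analysed with edgeR 4.0.16 (R 4.3.3): filterByExpr by line, TMM scaling, glmQLFit with robust estimation, glmQLFTest without covariates, Benjamini-Hochberg adjustment over all genes tested and a threshold of 0.05; glmTreat tested a 2-fold minimum. CPM and RPKM use TMM-scaled library sizes. SE is the log2 fold change divided by the square root of F. Floors of 3 counts and 95% exact counting intervals take each count as independent. They cover counting error only, since reads were PCR-amplified without molecular identifiers. If both mates were counted, they are too narrow even for counting error. Near copies were searched with BLAST in GENCODE M21 transcripts. Promoters are RefSeq sequences, held for 30 of the 44 members. All members are accounted for. From each other list up to 3 called genes per direction with the largest change are named, if the higher line reached 10 CPM. Itgax, Itgam, Itga2b, Ppbp, Parvg and single markers outside that rule were chosen after their values were seen. Members and lists were chosen with earlier results of these data known. The fit was tested on simulated data. No library was a copy of another, with chi-square per degree of freedom of 6.81 to 58.4 within a line. Alternatives were other scalings and filters, DESeq2 1.42.0, limma-voom (limma 3.58.1), each library left out, the replicate number as a block, removal of the 20 most abundant genes, other RPKM levels and, added after seeing the data, M21 lengths.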

Additional observations from a re-analysis of the deposited data

Results flagged for a closer look

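In 5 of 86 groups of 4 libraries (a member in one line) the highest or lowest library stood apart from the other 3, by a gap past Dixon's 95% critical value. Chance alone gives this in about 1 group in 20. Rap1b in MLE12 was highest in replicate 4, at 195 CPM, against 160.3 to 164 CPM in the others. Zyx in MLE12 was lowest in the same library, at 91.2 CPM, against 106 to 108 CPM. Itgb3 in LLC1 was lowest in replicate 3, at 0.496 CPM (24 counts), against 0.739 to 0.785 CPM. The other two rest on counts at the floor: Itga9 in LLC1 replicate 3 at 0.0207 CPM (1 count) and Itga8 in MLE12 replicate 1 at 0.0259 CPM (2 counts), with 0 in the other libraries of the line. Without the library concerned, each of the 3 tested genes at more than a few counts (Rap1b, Zyx and Itgb3) was called in the same direction.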

How the results depend on the processing

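Over 17 other settings the count of members higher in LLC1 was 15 or 16 and of those higher in MLE12 20 to 22, and past the 2-fold test it was 12 or 13 and 13 or 14. With each library left out the counts were 16 and 20 to 21, and genes called in all ran from 14939 to 15422. Of 41 members, 37 kept their direction and call under every setting run for them; the exceptions were Tln1, Parva and Itga2, given above, and Ilk, which was not called and turned its sign with upper-quartile scaling (0.0508), with a minimum of 1 CPM in 4 libraries (0.0435) and without LLC1 replicate 1 or 2, its log2 fold change with a library left out running from -0.0436 to 0.0321. The heterodimer count at 0.5 RPKM was 10 in MLE12; at 2 RPKM it was 6 in LLC1 and 4 in MLE12, with M21 lengths 8 and 5, and with a library left out 9 and 6. M21 lengths moved the family shares in which lengths differ, such as Rap1b from 70.6% to 64.7% of RAP1 RPKM in LLC1 and from 71.0% to 65.1% in MLE12. Same-numbered libraries deviated together by correlations of -0.15 to 0.15, and 2 of 4 LLC1 libraries correlated best with their own number. Pairing by number was thus not shown, and so few libraries cannot exclude it. With the replicate number as a block (replicate block) 16 and 21 members were called, and 14795 genes in all. Depth limits Itga8, Itgal, Fermt1 and Lims2, which rest on few counts.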
